A study of Mus musculus with 4 samples.

Results

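Gene expression was compared between macrophages of Cdk5r1 knockout and wildtype mice that had received no stimulus. The mice were males aged 6 weeks, and their marrow was cultured over 7 days in 25 ng/ml GM-CSF, a myeloid growth factor. The labels give the strain B6.129S4-Cdk5r1tm1Lht/J for both genotypes and describe biological replicates but no individual animals, so the p-values measure only the spread between these arrays, which may be technical. The rule took the arrays titled as basal, which gave 2 of the 4 arrays of the series and every gene measured on them. The other 2 arrays held cells given LPS, a bacterial cell wall component, at 100 ng/ml for 6 h. The treatment text of the basal samples also names LPS, but their titles and descriptions call them basal, and the titles were followed. On each array 10 µg of wildtype total RNA carried the dye Cy3 and knockout RNA the dye Cy5. There was no dye swap, and the effect of dye and of genotype on a probe cannot be told apart in any ratio below.

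Cdk5r1 encodes p35, a regulatory subunit that binds and activates the kinase CDK5, and is best known from neurons. GM-CSF cultures of bone marrow hold macrophages together with dendritic-like cells and leftover granulocyte precursors. Resting macrophages keep a low level of interferon-stimulated genes through small amounts of type I interferon. Many of these genes carry interferon-stimulated response elements in their promoters. Neutrophil precursors fill their granules in a fixed order, primary granules first, then secondary and tertiary ones.

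Promoters of 4 interferon-stimulated genes that were lower in knockout cells are shown because a motif like the response element was found in them. The motif searched was GAAA, then 2 bases of any kind, then GAAA, on both strands (TTTC, 2 bases and TTTC on the other), with overlapping matches counted, in the 250 bases before the transcription start. The 4 are those with the largest falls among promoters that held it, read 5′ to 3′ from RefSeq, build GRCm38.p6, with the matched bases in capitals.
Ifi211 (chr1:173913047-173913296, minus strand): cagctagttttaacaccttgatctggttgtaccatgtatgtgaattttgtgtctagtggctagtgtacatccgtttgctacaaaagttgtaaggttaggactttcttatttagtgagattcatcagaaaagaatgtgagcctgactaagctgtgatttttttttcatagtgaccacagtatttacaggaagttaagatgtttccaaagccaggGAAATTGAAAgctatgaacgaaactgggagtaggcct
Irgm2 (chr11:58214727-58214976, plus strand): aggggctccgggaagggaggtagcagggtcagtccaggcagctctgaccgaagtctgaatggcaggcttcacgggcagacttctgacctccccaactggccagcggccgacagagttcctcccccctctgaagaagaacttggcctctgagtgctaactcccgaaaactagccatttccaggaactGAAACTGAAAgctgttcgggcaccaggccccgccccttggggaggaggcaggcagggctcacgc
Oas1a (chr5:120907526-120907775, minus strand): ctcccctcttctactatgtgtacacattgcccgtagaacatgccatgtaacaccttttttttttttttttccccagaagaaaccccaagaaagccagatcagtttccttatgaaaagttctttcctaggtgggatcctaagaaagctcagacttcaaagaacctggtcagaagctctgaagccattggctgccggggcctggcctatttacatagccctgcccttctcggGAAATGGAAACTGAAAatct
Isg15 (chr4:156200819-156201068, minus strand): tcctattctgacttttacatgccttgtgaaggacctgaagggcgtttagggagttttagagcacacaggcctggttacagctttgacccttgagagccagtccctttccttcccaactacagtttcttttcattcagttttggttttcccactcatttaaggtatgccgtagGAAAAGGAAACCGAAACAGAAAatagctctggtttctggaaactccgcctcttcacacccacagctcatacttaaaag
In Isg15 and Oas1a the matches overlapped, and in Ifi211 there was 1 match whose first base lay 37 bases before the start. The motif was present in 13 of 24 interferon-list genes that were lower in knockout cells and had a promoter in the table (54.2%). It was also present in 14 of 31 list members that did not pass the test (45.2%). It was found in 936 of all 27025 promoters (3.46%), in 12% of the promoters of all lower genes and in 2.53% of those of all higher genes. The 12% stands for 26 of 216 lower genes, and the 26 include the 13 list genes above. Over the whole window of 300 bases, which adds those after the start, the share stayed at 54.2% among the called members and was 61.3% (19 of 31) among the uncalled ones, against 3.99% of all promoters. The order of called and uncalled members thus turned with the window, and both shares were above that of all promoters.

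Of 21846 genes tested, 1132 (5.18%) passed limma's test at an adjusted p of 0.05. Of all genes, 784 (3.59%) were higher and 348 (1.59%) lower in knockout cells. The median log2 ratio of all genes was 0.0017, and that of the called genes was 0.64 for the higher and -0.53 for the lower ones. Ratios of the 2 arrays correlated at r = 0.62 across genes, which are not independent replicates, and 65.9% of genes had the same sign on both arrays. A ratio of 2-fold or more on both arrays was reached by 137 genes upwards (0.627%) and 25 downwards (0.114%), while 7 genes passed 2-fold in opposite directions. The higher genes were dim, with a median level of 7.79 on the log2 intensity scale against 9.37 for the lower genes and 8.69 for all. In 201 of the 784 higher genes (25.6%) the wildtype channel was not well above background on either array, against 1.06% of all genes. Where a called gene had further probes that passed the filter, they all pointed the same way for 65 of 78 lower genes and for 71 of 139 higher genes. Median centring in place of loess moved the median of all genes to 0.11 and called 3791 higher and 512 lower genes.

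**Figure D1:**
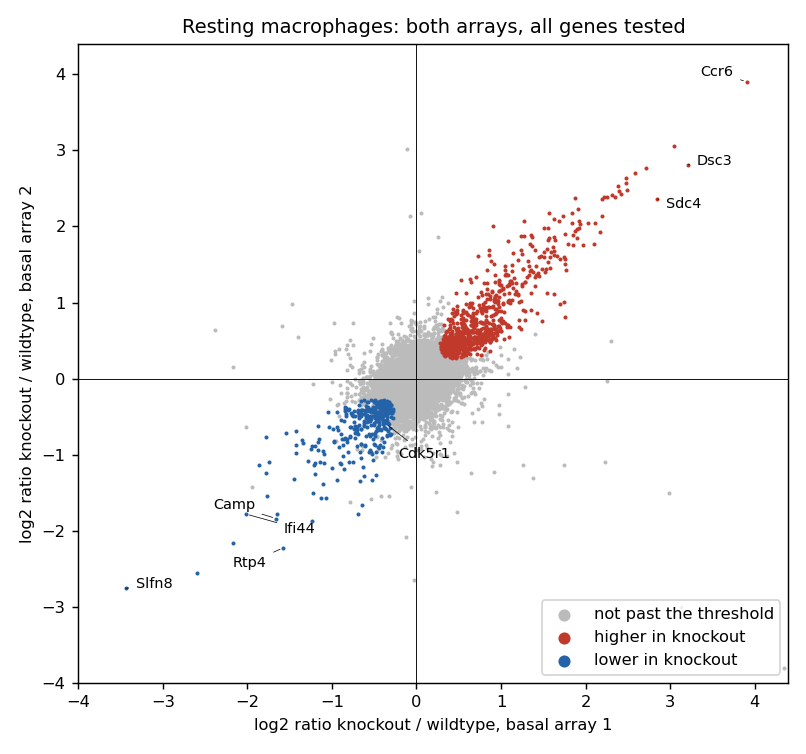
Log2 ratios of knockout over wildtype on basal array 1 (x axis) and basal array 2 (y axis) for all 21846 genes tested, each point 1 gene, with 784 higher and 348 lower genes coloured. Ccr6 stands at 3.91 and 3.90 at the top right, Slfn8 at -3.44 and -2.76 at the bottom left, and Cdk5r1 lies near the inner edge of the lower genes.

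Cdk5r1 itself was lower in the knockout channel on both arrays. Its level was 9.58 and 9.78 in wildtype and 9.21 and 9.19 in knockout cells, so the knockout channels lay below both wildtype channels. The log2 ratio was -0.37 and -0.59, a mean of -0.48 (SE 0.094, adjusted p = 0.0399). A second probe of the gene gave -0.47 and -0.51. Both probes were well above background in every channel, and the sources used here do not say whether they lie in the deleted part, so the remaining signal does not check the genotype. The call was lost under 10 of the 13 other settings planned, with adjusted p up to 0.24 when array 2 was left out. In 3 of the 10 the fit comes down to that of the basal arrays alone, with the same adjusted p of 0.071, and over all settings the ratio stayed between -0.59 and -0.33. In the LPS cells the ratio was -2.55 and -2.29, and the difference between the conditions passed the test, as 39 of all genes did (0.179%). Cdk5, the kinase that p35 activates, had ratios of 0.01 and 0.11 (adjusted p = 0.67). Of 17 tested genes of CDK5 and its partners, Cdk5r1 was the 1 called (5.88%, near the 5.18% of all genes).

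Many interferon-stimulated genes fell in resting knockout cells. Over 3 lists, the oligoadenylate synthetases, other antiviral effectors and the interferon-induced GTPases, 31 of 78 tested members fell (39.7%, against 1.59% of all genes) and 1 rose (against 3.59% of all genes). Their median log2 ratio was -0.27 on array 1 and -0.29 on array 2, and 51 of the 78 were below 0 on both. The count was 23 when either basal array was left out, 21 with the scanner's processed signals and 20 with the authors' deposited value table. The lists were chosen with earlier results of these arrays in view.

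The oligoadenylate synthetases make a second messenger that switches on an RNA-degrading enzyme when viral RNA is present. Of 11 tested genes of this list, 7 fell and none rose, with a median of -0.47. Oas2 had levels of 9.88 and 9.08 in wildtype and 8.64 and 7.58 in knockout cells. Its log2 ratio was -1.23 and -1.50, a 2.58-fold lower mean (SE 0.085, adjusted p = 0.00055). The knockout channel was lower on each array, and the 2 arrays differed from each other in both channels. Oasl2, an oligoadenylate synthetase-like protein, had ratios of -1.07 and -1.57. Oasl1, a relative that represses translation of Irf7, had -0.72 and -0.71. Oas1a had ratios of -0.92 and -0.90 at a bright level of 13.28 to 14.19 in all channels, and its second probe gave a mean of -0.65. Oas1f had -0.86 and -0.88, and Oas3 had -0.53 and -0.40. The Oas1 genes are near-copies of each other, so a probe may read more than 1 of them.

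Among 49 antiviral effectors, 20 fell and 1 rose, with a median of -0.28. Rtp4, a receptor transporter protein with antiviral activity, had levels of 12.16 and 10.74 in wildtype and 10.58 and 8.52 in knockout cells. The ratio was -1.57 on array 1 and -2.23 on array 2, a 3.73-fold lower mean (SE 0.15, adjusted p = 0.0014). Its wildtype and knockout levels overlapped across arrays, while each array on its own had the knockout channel lower. Ifi44, an interferon-induced protein that restrains virus replication, had ratios of -2.02 and -1.78. Ifi44l, its relative, had -1.17 and -0.93. Isg15, a ubiquitin-like modifier, had ratios of -1.17 and -0.63, with a second probe at -1.04 and -0.55. Rsad2, which encodes the antiviral enzyme viperin, had -0.67 and -0.96. Ifit1 and Ifit3, which bind viral RNA or partner those that do, had means of -0.56 and -0.71. Zbp1, a sensor of Z-form nucleic acid, had -0.93 and -0.68, and its second probe a mean of -0.70.

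DNA-sensor relatives of the Ifi200 family moved the same way. Ifi211 had ratios of -1.28 and -1.08, and Ifi209 of -0.86 and -1.18 with further probes at -0.83 and -0.60. Probes of this family may also share targets. Ms4a4c, a membrane protein, was the 1 list member that rose, by 0.79 and 0.53, but its other probes had means of -0.09 and -0.23. Xaf1, an apoptosis factor, fell by 0.58 on its brightest probe. A second probe of Xaf1 stood at 4.37 and 4.17, the opposite direction, and was larger than any called mean ratio. Siglec1, a sialic acid receptor of macrophages, had a mean of -0.51 and a second probe at -0.02.

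**Figure D2:**
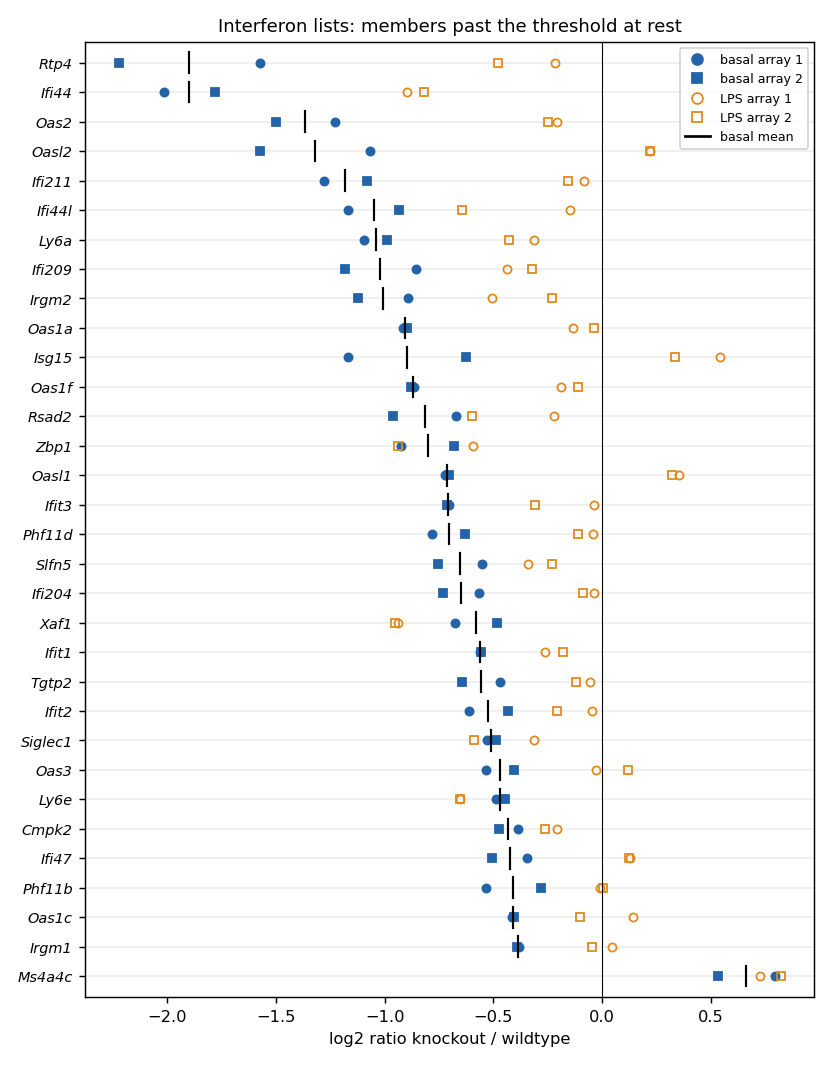
Log2 ratio of knockout over wildtype (x axis) of the 32 interferon-list members past the threshold at rest, with basal arrays filled, LPS arrays open and the basal mean as a bar. All but Ms4a4c lie below 0 on both basal arrays, and of these falls Oasl2, Isg15, Oasl1 and Ifi47 lie above 0 on both LPS arrays.

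The interferon-induced GTPases act on membranes around intracellular microbes. Of 18 tested, 4 fell (22.2%, against 1.59% of all genes), all of the immunity-related or related small GTPase kind. These were Irgm2, with ratios of -0.89 and -1.12, Tgtp2 (mean -0.56), Ifi47 (-0.43) and Irgm1 (-0.39). Second probes gave 0.04 for Tgtp2 and -0.19 for Irgm1. Irgm2, Tgtp2 and Irgm1 lie on the chromosome of Cdk5r1, as does Slfn5, a fall among the antiviral effectors. The part of this position in their ratios was not tested. No guanylate-binding protein passed the test, and the list's median was -0.01 (0.05 with median centring).

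Some signalling genes upstream and downstream of the interferon receptor fell. Of 23 tested, 4 fell (17.4%, against 1.59% of all genes) and none rose (against 3.59%). The median was -0.04 and turned to 0.20 with median centring. The 4 falls were Usp18, a feedback inhibitor of the receptor (-0.71 and -0.88), and Irf7, the transcription factor that amplifies interferon production (-0.63 and -0.58). The others were Dhx58, an RNA sensor (-0.44 and -0.44), and Ddx58, which encodes the RNA sensor RIG-I (-0.62 and -0.63). A second probe of Ddx58 had a mean of -0.18. Irf9, an interferon regulatory factor, had -0.21 and -0.32 (adjusted p = 0.13). Of the 7 tested ligand and receptor genes none passed, with means between -0.07 and 0.12. Ifnb1, Ifna4 and Ifng did not pass the filter on dim probes.

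The level of interferon-stimulated genes also differed between the arrays. In the wildtype channel 68 of the 78 list members were higher on array 1 than on array 2, with a median difference of 0.39. In the knockout channel 70 were, with a median of 0.42, while the same medians over all genes were 0.0016 and 0.0070. The part of this shared shift in the genotype ratios was not tested. After LPS the median ratio of the 78 genes was 0.01. Of the 78, 5 passed the test of the difference between conditions (against 0.179% of all genes), all with the lower ratio at rest. They were Oas2, Oasl2, Oasl1, Ifi44 and Ifi211. With the processed signals no gene passed that test across the array (2272 had an unadjusted p under 0.05 in limma), and with median centring 111 did. The processed signals differ in both background correction and normalisation, and which of these moved the count was not tested.

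Neutrophil genes formed another group with lower ratios. Over 3 lists, 19 of 49 tested members fell (38.8%, against 1.59% of all genes) and none rose (against 3.59% of all genes). Their median was -0.38 on array 1 and -0.32 on array 2, and 39 were below 0 on both. The count was 10 without array 1, 15 without array 2 and 8 with the processed signals. Neutrophils and their precursors carry these genes, and macrophages share some of them, such as Lyz2 and S100a8. In bulk RNA fewer cells of a type and less RNA per cell cannot be told apart.

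Secondary and tertiary granule genes held 10 of these falls among 15 tested. Camp, the antimicrobial peptide cathelicidin, had levels of 9.92 and 10.56 in wildtype and 8.26 and 8.72 in knockout cells. Its ratios were -1.66 and -1.84, a 3.36-fold lower mean (SE 0.11, adjusted p = 0.00055), and a second probe gave -1.29 and -1.61. All knockout levels lay below both wildtype levels. Ltf, the iron-binding lactoferrin, had ratios of -1.12 and -1.57. Ngp, a neutrophil granule protein, had -0.94 and -1.33. Hp, which encodes haptoglobin, had -1.34 and -0.84. Lcn2, the siderophore-binding lipocalin, fell less, with -0.58 and -0.51, and Ltb4r1, the leukotriene B4 receptor, had -0.69 and -0.44.

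Of 11 primary granule genes 4 fell, which were Ctsg (mean -0.74), Ms4a3 (-0.68), Serpinb1a (-0.56) and Lyz2 (-0.46). Mpo, the peroxidase that defines these granules, had ratios of -0.19 and -0.18 and did not pass (adjusted p = 0.45). Of 23 surface and cytosolic genes 5 fell, and 17 were below and 6 above 0. The 6 included the receptors Csf3r (0.17), Cxcr1 (0.10) and Cxcr2 (0.004), none of them called. S100a8 and S100a9, subunits of calprotectin, were bright in all channels. S100a9 had levels of 15.99 and 16.72 in wildtype and 14.85 and 15.62 in knockout cells, with ratios of -1.14 and -1.10 (SE 0.073, adjusted p = 0.00065). S100a8 had -1.21 and -1.13, and Fpr1, a receptor for bacterial formyl peptides, had -1.43 and -0.87. Wfdc21 (-0.75) and Stfa1 (-0.71) completed the 5. Here the array shift ran opposite to the interferon genes. Array 1 lay above array 2 in 11 of the 49 genes in the wildtype channel and in 13 in the knockout channel, and the part of this in the ratios was not tested.

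Eosinophil genes showed the same direction, with 3 of 13 lower (23.1%, against 1.59% of all genes) and a median of -0.33. Prg2, the major basic protein of eosinophil granules, had levels of 12 and 12.38 in wildtype and 10.14 and 11.24 in knockout cells. Its ratios were -1.86 and -1.14. Epx, eosinophil peroxidase, had -1.74 and -1.10, and Prg3 had -0.98 and -0.82. Mast cell and basophil genes held 2 rises among 12 tested (16.7%, against 3.59% of all genes) and no fall. Of the 12, 6 were above and 6 below 0, with a median of -0.007. Cpa3, a mast cell carboxypeptidase, had ratios of 0.99 and 0.63, and Mcpt8, a basophil protease, had 0.69 and 0.77. The called members of these lists had ratios of the same sign on the LPS arrays, except Serpinb1a with 0.27 and Mcpt8 with -0.02 on LPS array 2.

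**Figure D3:**
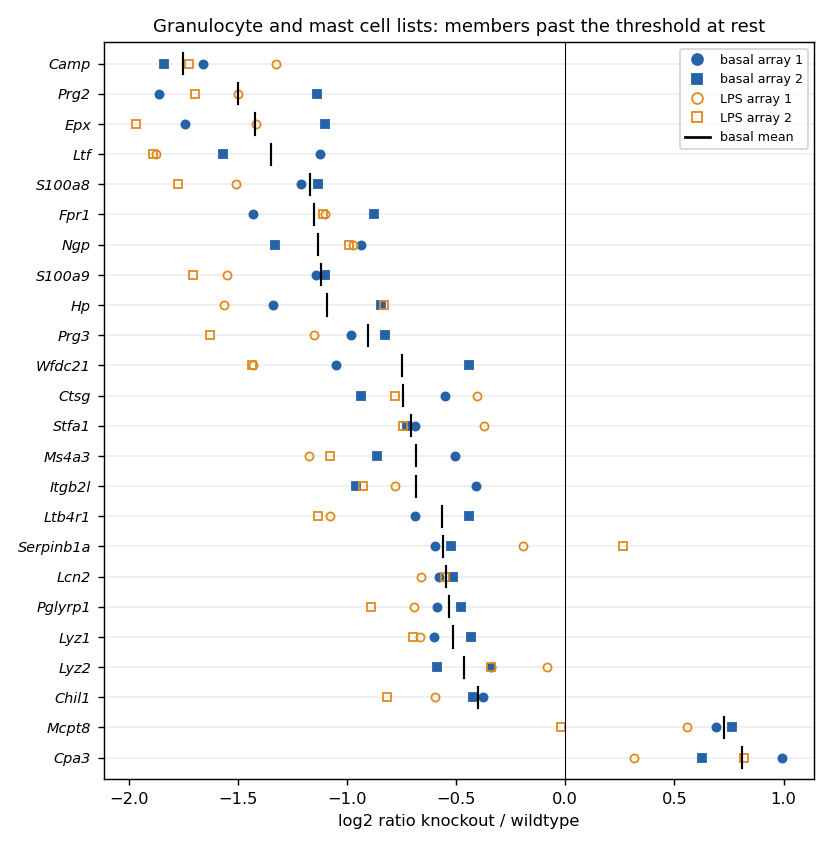
Log2 ratio of knockout over wildtype (x axis) of the neutrophil, eosinophil, mast cell and basophil list members past the threshold at rest, with basal arrays filled, LPS arrays open and the basal mean as a bar. Camp at -1.66 and -1.84 is the lowest, and Cpa3 and Mcpt8 are the 2 above 0.

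Some markers of the labelled cell type were bright in both genotypes and others dim. Adgre1, which encodes the adhesion receptor that marks mouse macrophages, had levels of 13.61 to 14.15, and Csf1r, the receptor of the macrophage growth factor CSF-1, of 16.92 to 17.31. Cd74, the invariant chain that escorts MHC class II, had 17.41 to 17.98. None of the 3 passed the test (adjusted p = 0.40, 0.40 and 0.085), and they were picked after their values were seen. Other identity genes were dim, such as Vsig4, a complement receptor, at a mean level of 6.50 and Siglec1 at 7.10, and Timd4 did not pass the filter on dim probes. Of 29 macrophage identity genes 1 rose and 2 fell (against 3.59% and 1.59% of all genes). Cd163, the haemoglobin scavenger receptor, was at least 1.56-fold higher, with wildtype not well above background on either array, and Mrc1, the mannose receptor, fell by 0.38. Siglec1 was the other fall. Among 25 dendritic cell markers Mgl2, a galactose lectin, rose by 0.34 (4%, near the 3.59% of all genes) and no other gene passed. Of 13 MHC class II genes H2-Ab1 (0.53 and 0.29) and H2-Eb2 (0.48 and 0.34) rose (15.4%, against 3.59% of all genes). In that list 6 genes were above and 7 below 0, with a median of -0.02 (0.33 with median centring). None of 20 MHC class I presentation genes passed, with a median of -0.13 that turned to 0.24 with median centring.

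The summed level of the macrophage list was higher in the knockout channel by 0.13 and 0.09 on the log2 scale on the 2 arrays, and that of the dendritic cell list by 0.09 and 0.30. The summed levels of secondary granule genes were lower by 0.64 and 0.40, and those of eosinophil genes by 0.51 and 0.21. Differences of sums were also below 0 for primary granule (-0.27 and -0.36), neutrophil surface (-0.24 and -0.30), stromal (-0.22 and -0.22) and endothelial genes (-0.19 and -0.002). They were above 0 for mast cell (0.32 and 0.11) and erythroid genes (0.32 and 0.09). Bright members weigh most in a sum, such as Lyz1 (16.6) and the uncalled Ear2 (15.71). The part of these summed levels in the other results was not tested. Progenitor genes had 3 falls and 1 rise among 17, against 1.59% and 3.59% of all genes. The largest fall was Spink2, a protease inhibitor of stem and progenitor cells, with ratios of -1.78 and -1.24. Plac8 (-0.91 and -1.11) and Ly6a, the stem cell antigen Sca-1 that interferon also induces (-1.10 and -0.99), fell too, while Meis1 rose by 0.53. A second probe of Plac8 had a mean of -0.27. No erythroid or megakaryocyte gene of 11 and 11 tested passed.

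The largest rise was that of Ccr6, a receptor for the chemokine CCL20 that dendritic cells and lymphocytes carry. Its level was 8.29 and 7.92 in wildtype and 12.20 and 11.82 in knockout cells. Both arrays gave nearly the same ratio, 3.91 and 3.90, a 15.0-fold higher mean (SE 0.11, adjusted p = 4.5e-05). After LPS the ratio was 0.62 and 0.20, and the difference of 3.49 passed the test. No other of 19 chemokine receptors passed. Sdc4, syndecan-4, a cell surface heparan sulfate proteoglycan, had levels of 9.57 and 10.05 in wildtype and 12.42 and 12.41 in knockout cells. Its ratios were 2.85 and 2.36 at rest and 1.81 and 2.40 after LPS. Of 22 genes of syndecans and heparan sulfate synthesis 2 more rose (13.6% with Sdc4, against 3.59% of all genes). They were the sulfotransferases Hs2st1 (0.73 and 0.56) and Ndst1 (0.29 and 0.43), and other probes of Ndst1 had means of 0.04 and -0.14.

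Other large rises were read from probes with little wildtype signal. Dsc3, a desmosomal cadherin of epithelia, was at least 7.25-fold higher, with ratios of 3.21 and 2.81, and its other probe, which failed the filter, had a mean of 0.0056. Cela2a, a pancreatic elastase, was at least 5.11-fold higher. Serpina6, which encodes the corticosteroid carrier of plasma, was at least 5.09-fold higher, and its other probe, also below the filter, had -0.0057. Pou4f2, a retinal transcription factor, was at least 4.25-fold higher, and 4930557J02Rik, a non-coding RNA, at least 5.78-fold. The epithelial keratins Krt6b (2.42 and 2.42) and Krt78 (2.21 and 2.39) had other probes, below the filter, with means of 0.13 and -0.0042. Adamtsl2, a matrix protein, had ratios of 2.39 and 2.46, and Gm20877 of 2.72 and 2.77, with 3 further kept probes between 0.03 and 0.18.

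Tpbg, an oncofetal membrane glycoprotein, had levels of 6.33 and 6.31 in wildtype and 8.64 and 8.71 in knockout cells. Its ratio of 2.36 exceeded the LPS ratio by 1.44, a difference past the threshold. The wildtype levels of the 12 largest rises lay between 5.83 and 10.05, where the lowest signal well above background was 6.09 to 6.14. Among the 100 largest rises, 50 had no wildtype signal well above background on either array, and 72 had an LPS mean ratio within 0.5 of the basal one. The difference between conditions passed the test for 5 of the 100, against 0.179% of all genes. The 100 were ranked on the basal ratio, which is itself part of that difference. For these ratios too, genotype and dye cannot be told apart. Rag1, the recombinase of lymphocyte precursors, was at least 2.57-fold higher, with its other probe, which failed the filter, at -0.05.

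**Figure D4:**
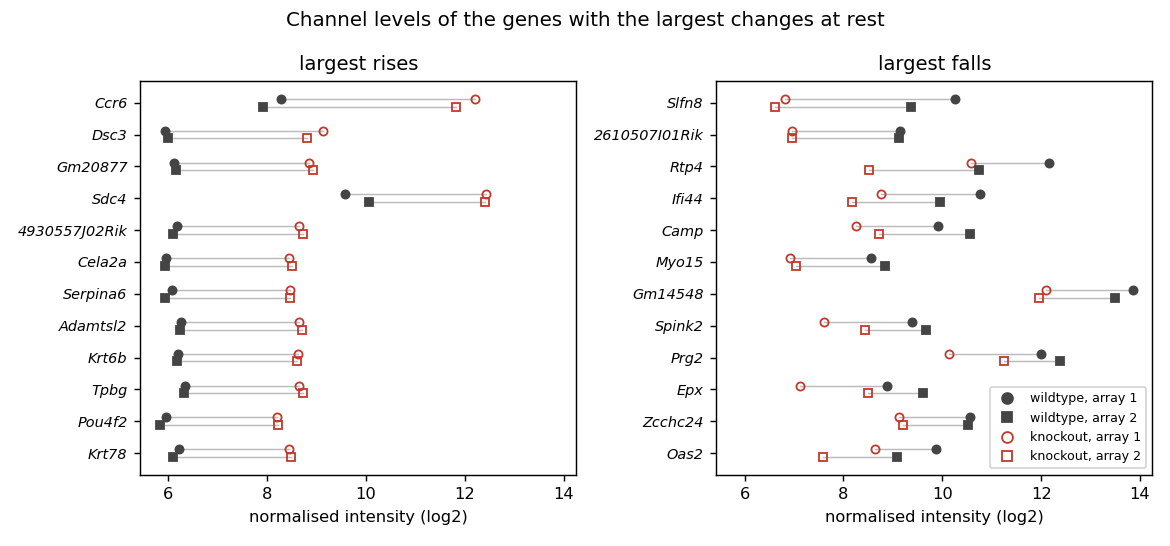
Normalised intensity (log2, x axis) of the 12 largest rises (left) and 12 largest falls (right), with wildtype channels filled, knockout channels open and a line joining the channels of 1 array. Most rises start from wildtype levels near 6, while Ccr6 and Sdc4 start from 7.92 or more, and every fall keeps its knockout channel at 6.61 or more.

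The largest fall was Slfn8, a Schlafen protein of myeloid and T cells. It had levels of 10.26 and 9.37 in wildtype and 6.82 and 6.61 in knockout cells. The ratio was -3.44 and -2.76, an 8.57-fold lower mean (SE 0.16, adjusted p = 0.00023). A second probe of the gene gave 0.18 and 0.26, the opposite sign. Schlafen genes are alike in sequence, and 2 more of 8 tested fell (37.5% with Slfn8, against 1.59% of all genes). Slfn5 had ratios of -0.55 and -0.76, and Slfn4 was at least 1.29-fold lower. All 8 had a mean below 0.

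Slfn8 and Slfn5 lie near Cdk5r1, the 18th and 16th gene tested on one side of it. The strain name is that of a congenic line, and neighbours of the gene were counted. Of the 40 nearest tested genes 2 rose and 2 fell (10%), against 5.18% of all genes, and their median was 0.013. Omg, a myelin glycoprotein, rose by 1.36 and 1.89 and Nf1, a Ras inhibitor, by 0.34 and 0.52. The nearest genes on each side, Psmd11 with -0.14 and -0.17 and Myo1d with -0.44 and -0.14, did not pass (adjusted p = 0.31 and 0.14). On the whole chromosome of Cdk5r1, 46 of 1259 tested genes fell (3.65%), and on the other 19 the share was 0.403% to 3.17%. The share that rose there was 4.53%, within the range of 1.15% to 5.03% on the others. Myo15, an unconventional myosin of the inner ear with ratios of -1.65 and -1.79, lies 311 tested genes from Cdk5r1 on this chromosome. In the stretch from Gm12250 to Myo15, 9 of 53 tested genes fell and 1 rose, where the shares of all genes were 1.59% and 3.59%. The stretch ends at Myo15, itself named among the largest falls, so its count cannot test for an excess of falls. The interferon-induced GTPases Irgm2, Irgm1 and Tgtp2 lie on the chromosome of Cdk5r1 too. The part of chromosome position in these falls was not tested.

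Other large falls belonged to no list. The long non-coding RNA 2610507I01Rik had levels of 9.14 and 9.12 in wildtype and 6.97 and 6.96 in knockout cells. Its ratio was -2.17 and -2.16 at rest against -0.23 and -0.32 after LPS, and the difference passed the test. Zcchc24, a zinc finger protein, had ratios of -1.45 and -1.31, with a second probe at -1.41 and -1.14. Gm14548 had ratios of -1.77 and -1.54 at levels of 11.95 to 13.85. Serinc3, a membrane protein picked after its values were seen, had -1.20 and -1.26, and its other probes had means of -0.75 and -0.65. Several probes of 1 gene pointed the same way in Zcchc24, Serinc3 and Camp.

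Most genes of the inflammatory lists were not called in these unstimulated cells, beside a call in 5.18% of all genes. Tnf had ratios of -0.11 and -0.26 and Il1b of -0.27 and -0.13 (adjusted p = 0.22 and 0.19). Il6 had 0.08 and -0.20 at levels of 6.49 to 6.71, close to background. Il10, the anti-inflammatory cytokine, did not pass the filter on dim probes, and none of 15 tested genes of its pathway was called. Of 16 pro-inflammatory cytokines Il18 (-0.75 and -0.49) and Ltb, lymphotoxin beta (-0.32 and -0.35), fell (12.5%, against 1.59% of all genes). Ccl5, a T cell attracting chemokine that interferon also induces, had -0.51 and -1.07 and was the 1 call among 25 chemokine ligands (4%). No gene passed among 25 Toll-like receptors and adaptors, 23 NF-kappaB genes, 26 immediate-early factors, 23 myeloid transcription factors or 27 scavenger and Fc receptors. In lists of this size no call lies near the share of all genes. A p that misses the threshold does not show equal levels.

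Matrix and adhesion genes held a few larger falls. Fn1, fibronectin, had ratios of -1.55 and -0.71, Thbs1, thrombospondin, of -0.67 and -0.35, and Mmp14, a membrane collagenase, of -0.78 and -0.64. F11r, the junction protein JAM-A, had -1.43 and -0.97, and Perp, a desmosome protein, -1.43 and -0.69. Vcan, the proteoglycan versican, rose by 0.37 and 0.50, with another kept probe at 0.22. Of 24 matrix genes 2 rose and 3 fell (against 3.59% and 1.59% of all genes). Nt5e, the ectoenzyme that makes adenosine from AMP, fell by 0.81 and 0.97, the 1 call among 30 genes of adenosine, prostaglandin and cAMP signalling.

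The metabolic and housekeeping lists ranged from no call to 4 calls each, beside 5.18% of all genes. Of 28 respiratory chain genes none passed, of 22 glycolysis and pentose phosphate genes Tkt, transketolase, fell by 0.69, and of 41 cell cycle genes Rrm2, a ribonucleotide reductase subunit, fell by 0.61. Among 30 cholesterol genes Abcg1, a cholesterol exporter, fell by 0.42. Of 29 lysosome genes 4 passed (13.8%): Ctsk (-0.62), Lipa (-0.44) and Ctsd (-0.40) fell and Gla, alpha-galactosidase, rose by 0.49. Ctsd turned to 0.12 with median centring. Atf4, the main factor of the integrated stress response, rose by 0.37, and its second probe had a mean of 0.15. Of 25 NRF2, heme and iron genes 3 passed (12%). Cd163 rose and Hp fell, as given above, and Ftl1, the ferritin light chain, rose by 0.54, with a second probe at 0.09. The medians of these bright lists lie close to 0, and over all 47 lists 20 medians changed sign with median centring.

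**Figure D5:**
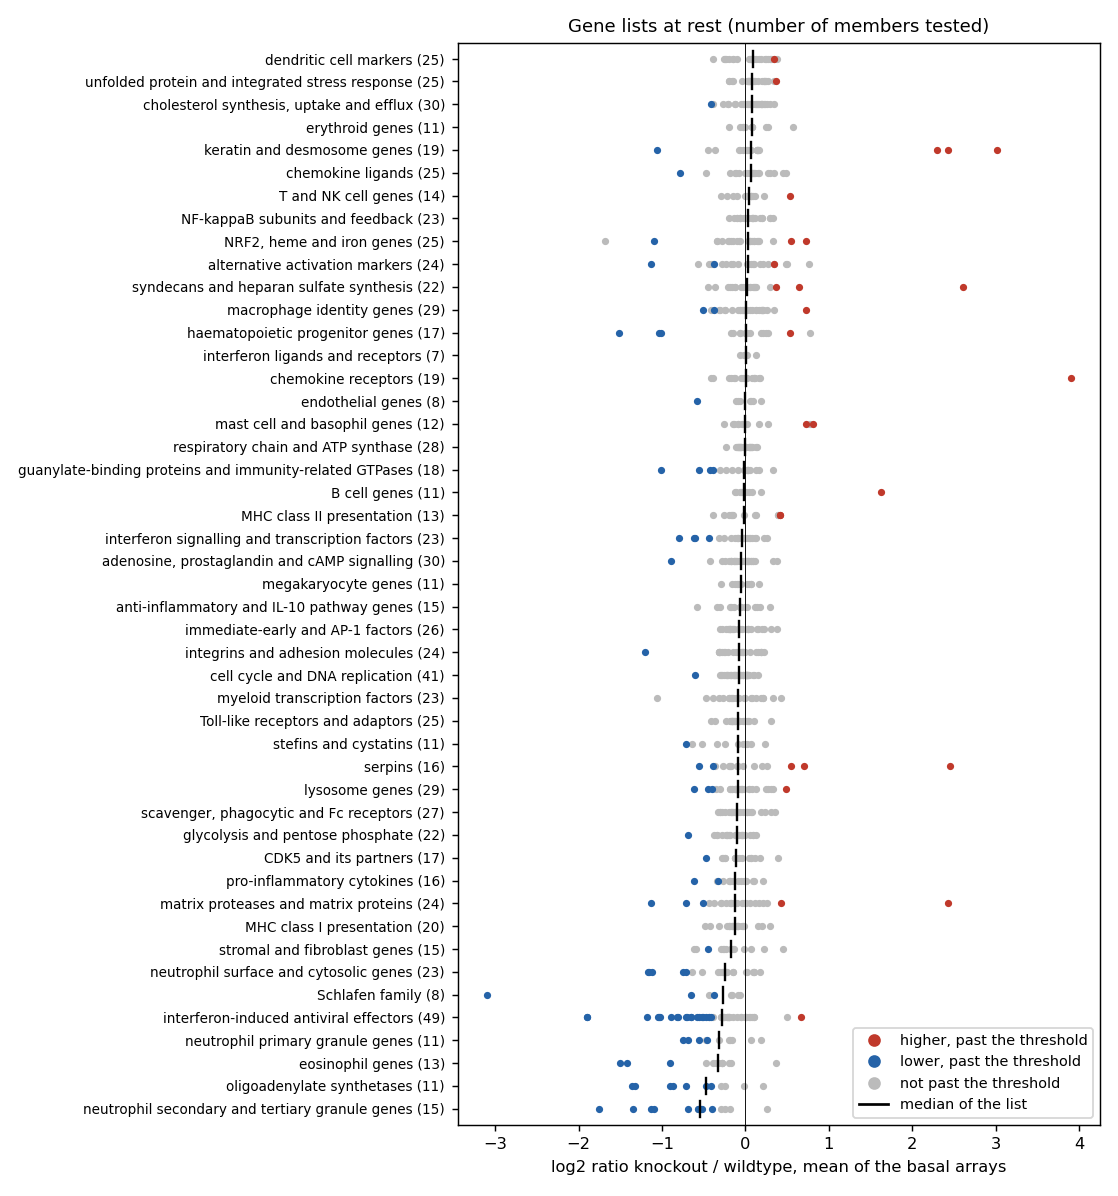
Mean log2 ratio of knockout over wildtype on the 2 basal arrays (x axis) for each tested member of the 47 lists (y axis, with the number tested), coloured by call, with the list's median as a bar. Secondary and tertiary granule genes (-0.54) and oligoadenylate synthetases (-0.47) have the lowest medians, and single genes such as Ccr6 and Dsc3 stand far from the rest of their lists.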

How the data were processed

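Two-colour Agilent arrays carried 44397 spots for 39429 probes. The deposited scanner files hold spot intensity in both channels, written by Agilent Feature Extraction (11.5.1.1 in the headers, with 9.3.2.1 given by the submitters' processing notes). The authors' deposited value table holds log2 ratios of the processed signals. The headers give 1 slide and 1 scan for all 4 arrays. On the basal arrays 63.6% to 70.6% of probe spots were well above background and none was saturated.

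Median intensities were corrected with normexp (offset 50) and loess within array, then Aquantile for levels, in limma 3.58.1 under R 4.3.3. Probes needed at least 1 channel well above background on both basal arrays. Accessions matched a RefSeq table (GRCm38.p6, while the array build is mm9) for 27508 probes. The brightest kept probe stood for a gene. limma with eBayes fitted 2 condition means over the 4 arrays, so the LPS arrays add only to the spread (2 residual degrees of freedom), with Benjamini-Hochberg adjustment over 21846 genes. The script was tested on simulated data. SE is that of the fit. A fold against a channel below background is "at least". The number of arrays limits precision.

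Genes were named as the 12 largest changes in each direction, up to 6 called members of a list in each direction (3 of the brightest where none was called), Cdk5r1, Cdk5, its neighbours and 4 cytokines. Isg15, Rsad2, Ifit1, Ifit3, Zbp1, Xaf1, Serinc3, Ccn3, Rpl23, Rack1, Irf9, Mpo, Lcn2, Adgre1, Csf1r and Cd74 were added after their values were seen. Members and lists were chosen with earlier results of these data known. Alternatives were the processed signals, the value table, median centring, other filters, the mean of probes, the basal arrays alone, a replicate block and each array left out.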

Additional observations from a re-analysis of the deposited data

Results flagged for a closer look

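For 9 named genes the knockout effect at rest differed from that after LPS by limma's test of the difference (39 of 21846 genes, 0.179%). The ratio was higher at rest for 3. Ccr6 differed by 3.49 on the log2 scale (SE 0.15, adjusted p = 0.0021), Cdk5r1 by 1.94 (SE 0.13, adjusted p = 0.010) and Tpbg by 1.44 (SE 0.11, adjusted p = 0.012). For Cdk5r1 the higher value means a smaller fall at rest. The ratio was lower at rest for 6. The RNA 2610507I01Rik differed by -1.89 (adjusted p = 0.0041). The interferon-stimulated Oasl2 differed by -1.54, Oas2 by -1.14, Ifi211 by -1.06, Oasl1 by -1.05 and Ifi44 by -1.04, with adjusted p between 0.025 and 0.046. A dye effect cancels in these differences only if it is constant between conditions, which was not tested and had no dye swap to show it. No gene passed this test with the processed signals.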

How the results depend on the processing

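The 1132 calls at rest became 661 with processed signals (425 higher), 655 with the authors' deposited value table (421 higher), 748 with both channels above background (482 higher), 711 from the basal arrays alone (173 lower) and 4303 with median centring (3791 higher). Without 1 array the count was 711 to 794, with 490 to 567 higher and 173 to 257 lower. Of the 1132, 473 were called again with processed signals and 1014 with median centring. The 162 genes past 2-fold on both arrays became 596 with processed signals and with the value table, and 69 with both channels above background. The Cdk5r1 ratio was -0.48 with processed signals, the value table, both channels, the basal arrays alone and the replicate block (adjusted p = 0.14, 0.15, 0.053, 0.071 and 0.069), -0.33 with median centring (0.053) and -0.59 to -0.37 without 1 array (0.060 to 0.24). The 39 differences from LPS became 0 with processed signals and with the value table (2272 and 2269 genes at an unadjusted p under 0.05 in limma), 111 with median centring, 131 without a filter, 88 with a filter on 2 of the 4 arrays, 21 with both channels, 22 with the replicate block and 0 to 184 without 1 array. Leaving out LPS array 2 gave the 0 (1886 at an unadjusted p under 0.05) and basal array 1 the 184. Interferon-list falls, 31, were 20 with the value table. Neutrophil-list falls, 19, were 8 with processed signals and the value table and 10 to 15 without 1 array. Calls among the 40 neighbours of Cdk5r1, 4, were 10 with median centring, which called 4303 of all 21846 genes. Signs turned for B2m (0.41), Ctsd (0.12) and Psmd11 (0.043) with median centring, for Il6 on leaving out 1 basal array (-0.20 to 0.081) and for Xaf1 with the mean of its probes (1.85). The causes were not tested. Of 122 named genes, 68 kept and 54 lost their side of the threshold with processed signals.

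The labels do not say whether replicate numbers pair the arrays. Differences of the ratio between array 1 and 2 at rest and after LPS correlated at -0.17 over genes. This cannot settle the pairing, because a ratio cancels what both channels of an array share. With the replicate block 935 genes passed (673 higher, 262 lower). The crossed pairing, added after seeing the data, called 1823 (721 lower) and 248 differences from LPS. Over the whole window of 300 bases the motif share of called interferon-list members stayed at 54.2%, while that of uncalled members went from 45.2% to 61.3%. Dim wildtype signal limits the largest rises.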

Other observations

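Families below were counted after their values were seen. Of 250 tested olfactory receptor genes, which encode odorant receptors of the nose, 24 rose (9.6%, against 3.59% of all genes) and 1 fell. Their median level was 6.61 on the log2 scale, near the lowest signal well above background. Among the 172 with both channels above background on both arrays 6 rose (3.49%). The median ratio was 0.06 at rest and 0.08 after LPS.

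Of 96 cytosolic ribosomal protein genes, among the brightest on the array at a median level of 16.68, 25 rose (26.0%, against 3.59% of all genes) and 1 fell. The count of rises was 1 with processed signals, 78 with median centring, 6 without basal array 1 and 7 without basal array 2. Rpl23, a large subunit protein, had ratios of 0.67 and 0.74, and its other probes had means of 0.45 and -0.08. Rack1, a scaffold on the small subunit, had 0.71 and 0.60.

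Ccn3, a secreted matricellular protein, had levels of 9.99 and 10.00 in wildtype and 11.69 and 10.98 in knockout cells, with ratios of 1.70 and 0.98 at rest and 1.62 and 1.95 after LPS. Serpinb8, an intracellular protease inhibitor, had 0.82 and 0.58 at rest and 0.83 and 0.91 after LPS. Of the 100 largest falls none had a knockout channel below background on both arrays, and 61 had an LPS mean ratio within 0.5 of the basal one.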
